A study of Homo sapiens with 6 samples.

Results

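Lysosome and autophagy genes were followed in libraries labelled HT1197, an established human line described as bladder carcinoma, after panobinostat or vehicle. The genes were taken by symbol from a list of 51, split into 26 autophagy core genes, 23 lysosomal genes and the transcription factors TFEB and TFE3. Of these, 50 had a row among the 22718 genes of the deposited tables, and the expression of CTSZ was not analysed here. Panobinostat is an inhibitor of the histone deacetylases, enzymes that take acetyl groups off histones and other proteins. The 3 panobinostat libraries, A to C, came from cells kept for 48 hours in the drug at 2 times the line's IC50, a standard measure of potency whose value the labels do not state. The 3 vehicle libraries, A to C, came from cells kept equally long in 1% DMSO, and the labels also call these untreated. All 6 came from the same line of a cell bank, grown in DMEM with serum, penicillin, streptomycin and normocin. The labels describe dishes seeded in triplicate and do not tie a library to a dish, so p-values measure the spread between these libraries, which may be technical. No other line, dose or time is compared here.

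In autophagy, cytoplasm, protein aggregates or worn organelles are wrapped in a closed membrane vesicle, the autophagosome. The vesicle then fuses with lysosomes, acidic organelles whose proteases, glycosidases and lipases take the contents apart. The kinases ULK1 and ULK2 start the process, a beclin-containing lipid kinase marks the membrane, lipid transfer proteins feed it, and ATG8 proteins are coupled to it and hold the cargo receptors. TFEB and TFE3 switch on lysosomal and autophagy genes through E-box elements in promoters, and the kinase complex mTORC1 keeps them out of the nucleus in fed cells. Transcript levels say nothing direct about protein amount, acidity or the flow of cargo, none of which was measured.

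The labelled cell type was set against its markers. Of 20 urothelial markers, 11 had a row, and their summed level was 15.5, 11.7 and 11.8 FPKM (fragments scaled by gene length and sequencing depth) in the panobinostat libraries, against 15.3, 11 and 12.5 FPKM in the vehicle libraries. Most of that was GATA3, a factor that neuroblasts also use, at 9.15 FPKM after panobinostat and 10.6 FPKM after vehicle (means, n = 3 each). The epithelial keratin KRT8 averaged 0.0207 FPKM after panobinostat and 0.0115 FPKM after vehicle. FOXA1, TP63 and the uroplakin UPK1B had 12, 32 and 19 counts over the 3 panobinostat libraries, in that order, and none in any vehicle library. Of the 4 urothelial markers tested, PPARG rose 2.48-fold (2.2 FPKM after panobinostat, 0.825 FPKM after vehicle) and EPCAM fell (0.673 FPKM after panobinostat, 1.07 FPKM after vehicle), the EPCAM call being lost without panobinostat library B (log2 fold change -0.67, adjusted p = 0.0579). The 10 listed markers of adrenergic neuroblasts summed to 1479, 1425 and 1394 FPKM after panobinostat and to 1865, 1654 and 1759 FPKM after vehicle, and 7 of the 9 tested fell. MYCN led them at 579 ± 22.5 FPKM and 832 ± 67.3 FPKM (SD, panobinostat before vehicle), and their part in the results was not tested. The markers thus go against the label, and the cells are called HT1197-labelled throughout. KRT8, FOXA1, TP63, UPK1B, GATA3 and MYCN were chosen for mention after their values were seen.

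Total counts ran from 13417898 to 18186087 in the panobinostat libraries and from 14287080 to 18095984 in the vehicle libraries, and 3 counts stood for 0.161 to 0.216 CPM. CPM are counts relative to library size, with TMM factors applied. Spearman rho over genes lay between 0.993 and 0.997 for libraries of one group and between 0.941 and 0.950 across groups. The libraries of letter A stood somewhat apart from B and C within each group, with a chi-square per gene of 7.88 to 9.88, against 2.65 between panobinostat B and C and 3.05 between vehicle B and C.

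Panobinostat left the autophagy core divided and moved most of the lysosomal genes upward. Of the 25 autophagy genes tested, 8 rose, 7 fell and 10 did not pass, with a median log2 fold change (panobinostat minus vehicle) of 0.05. Of the 22 lysosomal genes tested, 14 rose, 1 fell and 7 did not pass, with a median of 0.60. Over all 16084 genes tested, 33.7% rose and 31.5% fell (edgeR's quasi-likelihood test, Benjamini-Hochberg adjusted p up to 0.05), and the median was 0.01. The autophagy counts (32% risen, 28% fallen) lie near this background, while the lysosomal counts (63.6% risen, 4.55% fallen) lie above it for rises and below it for falls. MAP1LC3A had too few counts to be tested.

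Since most genes of this comparison are called, a change of 2-fold or more was counted as well. GABARAPL1, WIPI1, OPTN and MAP1LC3B among the autophagy genes and NPC2, PSAP and NPC1 among the lysosomal genes rose that far, and ULK2 fell that far. That is 7 risen and 1 fallen of 49 tested, 14.3% and 2.04%, beside 16.8% and 5.27% of all genes, and most of the listed genes are abundant, so the level matters for this reading. Abundant genes rose less often: of the 9930 averaging at least 10 CPM, 27.0% were called higher and 42.3% lower, with 6.19% risen and 4.83% fallen 2-fold or more. At that level 12 of 19 lysosomal genes rose and 1 fell, and 7 of 23 autophagy genes rose and 6 fell. Of the 43 listed genes at that level, 5 rose 2-fold or more (11.6%) and none fell that far. The values of the groups did not overlap for 14 of the 22 lysosomal and 19 of the 25 autophagy genes, beside 68.8% of all genes tested. The counts depend on the scaling between libraries: upper quartile scaling gave 11 risen and 5 fallen autophagy genes and 16 risen and 1 fallen lysosomal genes, while calls over all genes went to 63.2% rises, against 51.7% as reported.

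**Figure D1:**
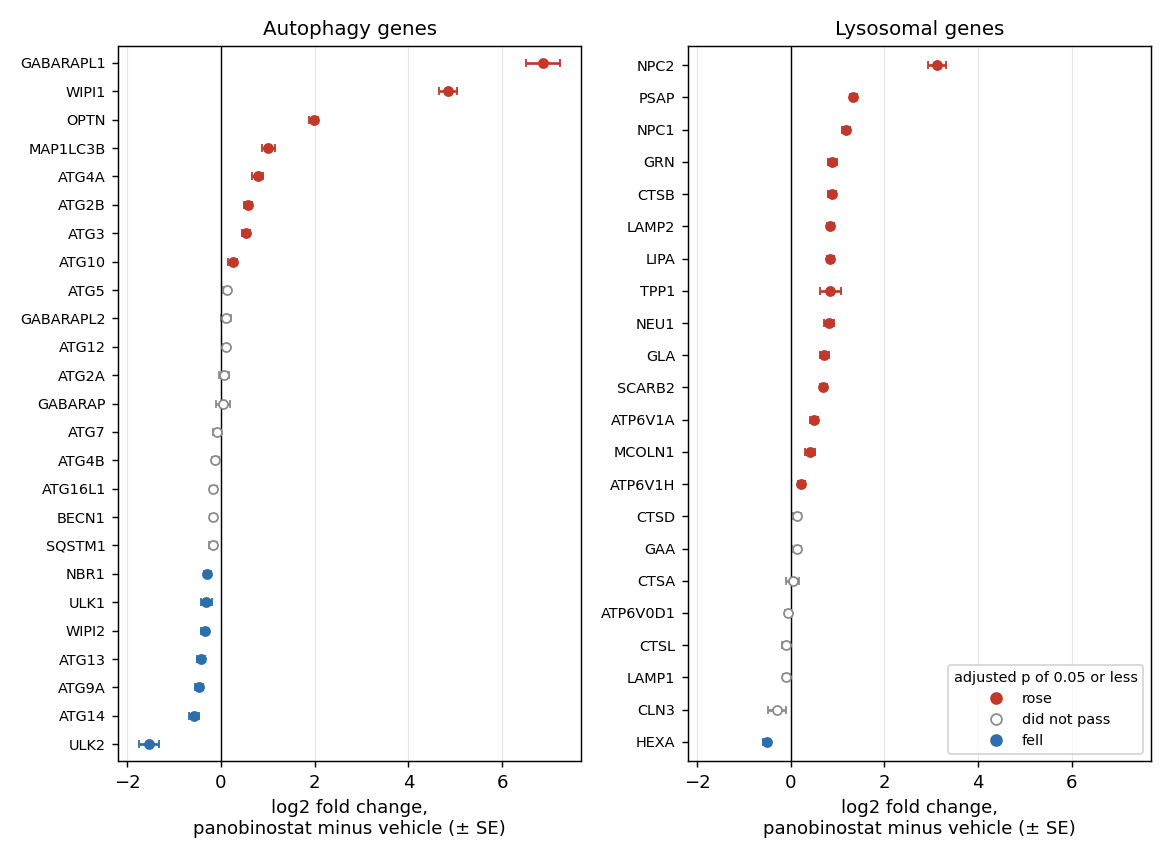
Log2 fold change of each gene tested, panobinostat minus vehicle, with its SE, for 25 autophagy genes (left) and 22 lysosomal genes (right). Filled points passed the test and open points did not. The autophagy genes spread to both sides of 0, from -1.53 for ULK2 to 6.87 for GABARAPL1, whose size depends on a near-zero vehicle level; the lysosomal genes run from -0.51 for HEXA to 3.13 for NPC2.

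In summed FPKM, a relative measure, the lysosomal transcripts were the larger pool. Their 22 genes summed to 747, 789 and 769 FPKM in panobinostat libraries A, B and C, against 409, 395 and 389 FPKM in the vehicle libraries. PSAP alone made up much of this, and without it the sum was 425 ± 8.72 FPKM after panobinostat and 273 ± 5.95 FPKM after vehicle (SD, n = 3 each). The 26 autophagy genes summed to 228, 228 and 222 FPKM after panobinostat and to 191, 198 and 195 FPKM after vehicle. Neither pair of groups overlapped. In a bulk sample, a change in the number of cells of a kind and a change in RNA per cell cannot be told apart.

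TFEB (chr6:41683978-41736259, GRCh38) stood at 10.1, 10.2 and 10.1 CPM in the panobinostat libraries, against 6.20, 5.38 and 5.78 CPM in the vehicle libraries. Every panobinostat library lay above every vehicle library, and the log2 fold change was 0.81 ± 0.13 (SE, adjusted p = 6.67e-05). TFE3, its relative, stood at 17.2, 17.3 and 14.9 CPM after panobinostat and at 16, 11 and 13.9 CPM after vehicle. The groups overlapped, and TFE3 did not pass (0.27 ± 0.13, adjusted p = 0.0845). It did without vehicle library A (0.39, adjusted p = 0.0169), with library sizes left unscaled (0.39), with a filter at a mean of 10 CPM (0.39) and with upper quartile scaling (0.41). Adjusted p ran from 0.0146 to 0.387 over 18 alternatives. Per length, TFEB was at 0.469 ± 0.040 of the TFE3 level after panobinostat and at 0.327 ± 0.040 after vehicle. The rest of this factor family is described from the list of mTORC1 and Rag genes below.

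Promoters were read to see which of these genes carry the E-box that TFEB and its relatives bind. RefSeq promoters of GRCh38.p14, from 250 bases before the start to 50 after it, were matched for 44 of the 51 symbols; MAP1LC3A, LAMP2, CTSB, HEXA, PSAP, ATP6V1H and ATP6V1A had no entry. The E-box core CACGTG, searched on both strands, was in 8 of 17 lysosomal promoters (47.1%) and 2 of 25 autophagy promoters (8.0%), beside 7.26% of all 35116 promoters. In each of these 10 promoters at least 1 core was preceded by T, as TCACGTG, a form found in 3.71% of all promoters. The palindrome TCACGTGA, the centre of the element known from lysosomal promoters, was in 6 of 17 lysosomal and 1 of 25 autophagy promoters, against 0.98% of all. These motifs are nested, so they are not separate observations. The 17 lysosomal promoters include that of CTSZ, which held none of these motifs and whose expression was not analysed.

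Shown are the promoters of the genes that changed most among those with the element, NEU1, ATG14, ATG3 and MCOLN1, and that of LAMP1, which holds most copies and was chosen after its values were seen. Each runs 5′ to 3′ along the gene's strand, and capitals mark TCACGTG on either strand. NEU1 lies at chr6:31862772-31863071 (minus strand), ATG14 at chr14:55411781-55412080 (minus), ATG3 at chr3:112561913-112562212 (minus), MCOLN1 at chr19:7522374-7522673 (plus) and LAMP1 at chr13:113296989-113297288 (plus).
NEU1: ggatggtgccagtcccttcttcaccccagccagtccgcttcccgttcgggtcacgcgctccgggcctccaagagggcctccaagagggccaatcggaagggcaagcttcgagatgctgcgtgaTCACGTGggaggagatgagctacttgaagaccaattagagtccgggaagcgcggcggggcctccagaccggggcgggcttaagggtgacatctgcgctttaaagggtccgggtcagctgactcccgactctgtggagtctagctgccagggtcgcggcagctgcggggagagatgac
MCOLN1: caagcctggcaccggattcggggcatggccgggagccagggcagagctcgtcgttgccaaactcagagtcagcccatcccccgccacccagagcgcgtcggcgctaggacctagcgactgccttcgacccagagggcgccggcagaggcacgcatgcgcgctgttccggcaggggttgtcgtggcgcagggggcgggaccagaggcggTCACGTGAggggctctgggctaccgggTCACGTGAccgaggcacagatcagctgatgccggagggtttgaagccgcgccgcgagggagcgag
LAMP1: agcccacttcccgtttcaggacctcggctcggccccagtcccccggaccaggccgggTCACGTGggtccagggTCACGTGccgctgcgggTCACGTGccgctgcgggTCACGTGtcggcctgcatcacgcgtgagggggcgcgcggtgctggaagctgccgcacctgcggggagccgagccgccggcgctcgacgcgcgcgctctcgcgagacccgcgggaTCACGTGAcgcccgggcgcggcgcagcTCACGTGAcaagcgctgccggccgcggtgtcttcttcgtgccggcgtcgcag
ATG3: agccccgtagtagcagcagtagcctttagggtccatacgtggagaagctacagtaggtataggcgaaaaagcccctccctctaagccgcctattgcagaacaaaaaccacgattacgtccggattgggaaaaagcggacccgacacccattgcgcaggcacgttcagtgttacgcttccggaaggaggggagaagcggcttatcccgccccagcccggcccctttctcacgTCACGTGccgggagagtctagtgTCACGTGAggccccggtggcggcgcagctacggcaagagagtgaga
ATG14: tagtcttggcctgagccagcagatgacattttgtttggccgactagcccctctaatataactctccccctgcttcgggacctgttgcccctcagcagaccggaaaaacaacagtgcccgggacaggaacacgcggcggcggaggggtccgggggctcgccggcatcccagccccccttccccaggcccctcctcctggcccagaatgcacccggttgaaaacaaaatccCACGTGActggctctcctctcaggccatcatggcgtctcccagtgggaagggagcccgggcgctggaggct

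Among lysosomal genes with both a promoter and a test, 2 of the 8 that hold CACGTG rose, MCOLN1 and NEU1, and 6 did not pass, LAMP1, CLN3, CTSA, CTSD, GAA and ATP6V0D1. Their median log2 fold change was 0.09, with a range of -0.29 to 0.82. The 2 became 4 of 8 without vehicle library A, when CTSA and GAA rose too, and 4 of 8 with upper quartile scaling, when CTSD and GAA did. Of the 8 lysosomal genes without it 7 rose, under both of these settings as well, with a median of 0.85 and a range of -0.09 to 3.13. With library sizes left unscaled CTSD joined MCOLN1 and NEU1, for 3 of 8 with the core. LAMP2, CTSB, PSAP, ATP6V1H and ATP6V1A, which rose, and HEXA, which fell, had no promoter entry and are in neither set. Whether they hold the core is not known here, so the comparison covers only part of the lysosomal genes. LAMP1, with 6 cores, stood at 147, 163 and 158 CPM after panobinostat and at 174, 164 and 162 CPM after vehicle, and its groups overlapped (-0.09 ± 0.07, adjusted p = 0.259). Of the autophagy pair, ATG3 rose and ATG14 fell. The promoters of the genes with the largest changes, WIPI1, GABARAPL1, OPTN and NPC2, held none in this window, which says nothing of sites elsewhere.

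A FOXO-type element, GTAAACA, was in 1 of the 44 promoters, that of CTSL, beside 3.42% of all promoters. The antioxidant response core TGACNNNGC was in 9 of 17 lysosomal promoters and 1 of 25 autophagy promoters, that of MAP1LC3B, beside 13.3% of all. Of its 11 matches in lysosomal promoters 2 share bases with a CACGTG core. The promoter of CTSZ, whose expression was not analysed, is among the 9.

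**Figure D2:**
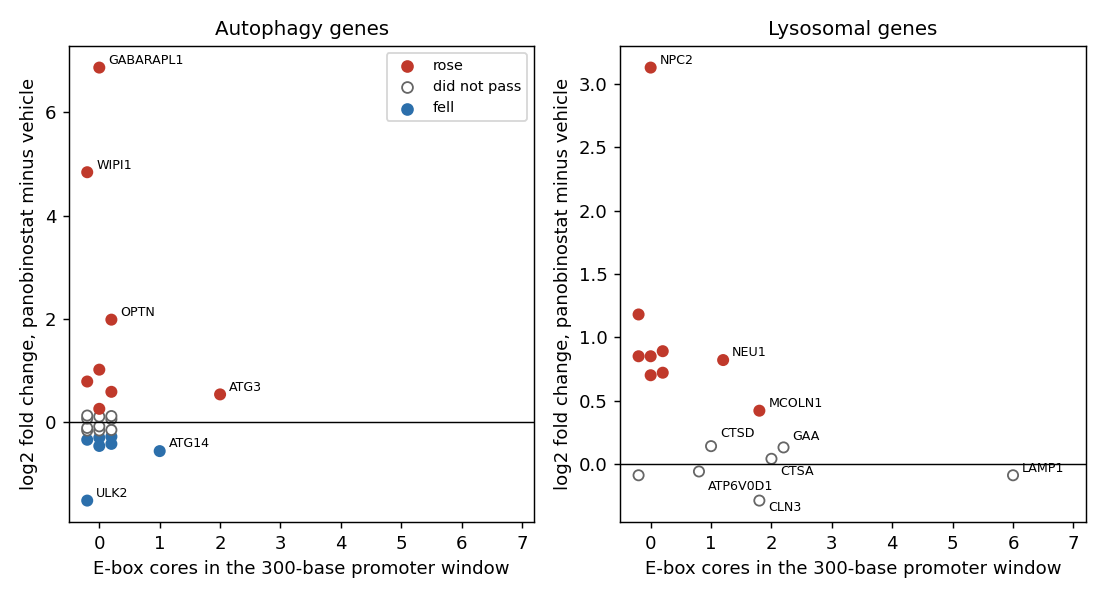
Log2 fold change, panobinostat minus vehicle, against the number of CACGTG cores in the promoter window, for the 25 autophagy genes (left) and 16 lysosomal genes (right) with both values; points at one number are spread sideways to keep them apart, and the vertical scales differ. Of the 8 lysosomal genes with at least 1 core MCOLN1 and NEU1 rose (4 of 8 without vehicle library A or with upper quartile scaling), and LAMP1 with 6 cores lies near 0. LAMP2, CTSB, PSAP, ATP6V1H and ATP6V1A, which rose, and HEXA, which fell, had no promoter entry and are not drawn.

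At the start of the pathway, the 3 listed genes of the kinase complex, ULK2, ATG13 and ULK1, were lower after panobinostat. Further genes of the complex, given below, were not. ULK2 (chr17:19770829-19867936) stood at 1.28, 1.3 and 1.5 CPM in the panobinostat libraries, against 4.04, 3.80 and 4.04 CPM in the vehicle libraries. It fell by 1.53 ± 0.21 on the log2 scale (SE, adjusted p = 1.39e-05), with no overlap. ATG13, the adaptor of the complex, stood at 68.3, 63.1 and 61.5 CPM after panobinostat and at 92.5, 85.4 and 81.3 CPM after vehicle, again without overlap (-0.43 ± 0.08, adjusted p = 0.000220). ULK1, the main kinase in most tissues, stood at 18.8, 20.1 and 16.7 CPM after panobinostat and at 26.3, 21.0 and 21.8 CPM after vehicle.

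The ULK1 fall was small (-0.31 ± 0.11, adjusted p = 0.0246) and is the least secure of the 3. Its call held in 9 of 18 alternatives, over which adjusted p ran from 0.0118 to 0.299. It did not pass without panobinostat library C (-0.24, adjusted p = 0.119) or without vehicle library A (-0.22, adjusted p = 0.0907). The same held with upper quartile scaling (-0.17, adjusted p = 0.2), library sizes left unscaled (-0.20, adjusted p = 0.149), a filter at a mean of 10 CPM, limma and the stricter threshold of 0.01. Per length, ULK1 was 17.8 ± 2.95 times the ULK2 level after panobinostat and 7.52 ± 0.799 times after vehicle, so ULK1 was the more abundant kinase transcript in every library. Of 12 further genes of initiation and the lipid kinase, 7 rose (58.3%) and 2 fell (16.7%), beside 33.7% and 31.5% of all genes. ZFYVE1, a protein of the membrane sites where autophagosomes form, rose by 0.68 ± 0.10, PIK3C3, the lipid kinase itself, by 0.47 ± 0.08, and RB1CC1, the scaffold of the ULK complex, by 0.33 ± 0.08. ATG101, another subunit of that complex, chosen after its values were seen, rose by 0.29 ± 0.10 with overlap (adjusted p = 0.0238). The scaffold and ATG101 thus moved the other way from the kinases and ATG13.

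ATG14 directs the beclin lipid kinase complex to autophagy. It stood at 16.6, 14.7 and 18.2 CPM after panobinostat and at 21.5, 25.7 and 26.5 CPM after vehicle. The groups were separate, and the ATG14 log2 fold change was -0.57 ± 0.11 (adjusted p = 0.00039). BECN1, beclin itself, stood at 95.8, 89.0 and 96.9 CPM after panobinostat and at 104, 109 and 103 CPM after vehicle. All of its panobinostat values lay below its vehicle values, yet it did not pass (-0.17 ± 0.07, adjusted p = 0.0516). A call resulted when panobinostat library A was left out (-0.18, adjusted p = 0.0441), when vehicle library A was (-0.18, adjusted p = 0.0411), and when low counts were not filtered (-0.20); adjusted p ran from 0.0382 to 0.749 over 18 alternatives.

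Among the proteins that feed and mark the growing membrane, relatives went apart. WIPI1 (chr17:68420948-68457513), a reader of the lipid made by the beclin complex, stood at 24.5, 22.8 and 19.6 CPM after panobinostat and at 0.866, 0.878 and 0.578 CPM after vehicle. It rose 28.7-fold (4.84 ± 0.19 on the log2 scale, adjusted p = 3.04e-11), with groups far apart. The vehicle counts of WIPI1 were only 12, 15 and 10, so the size of its rise is uncertain. Its log2 fold change ran from 2.68 to 4.98 over the alternatives. WIPI2, its more abundant relative, stood at 77.1, 75.1 and 81.0 CPM after panobinostat and at 94.9, 100 and 102 CPM after vehicle, and fell by 0.35 ± 0.07. Per length, WIPI1 reached 0.760 ± 0.106 of the WIPI2 level after panobinostat, against 0.0207 ± 0.00499 after vehicle. Of their other relatives, WDR45 fell by 0.54 ± 0.10 and WDR45B by 0.29 ± 0.07, so of these 4 relatives WIPI1 alone rose; 13.9% of the exon bases of WDR45 are shared with another gene on its strand, and the WDR45B fall did not pass with upper quartile scaling.

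ATG2B, a lipid transfer protein that supplies the membrane, stood at 202, 173 and 166 CPM after panobinostat and at 109, 127 and 126 CPM after vehicle, and rose by 0.58 ± 0.09. ATG9A, the scramblase of the vesicles that seed it, stood at 39.5, 40.4 and 39.6 CPM after panobinostat and at 62.2, 49.7 and 54.0 CPM after vehicle, and fell by 0.47 ± 0.09. The groups did not overlap for ATG2B or ATG9A; 38.8% of the exon bases of ATG9A are shared with another gene on its strand, so its counts are less certain. ATG2A stood at 17.7 to 21.9 CPM after panobinostat and 17.7 to 21.4 CPM after vehicle, and did not pass (0.06 ± 0.11, adjusted p = 0.648).

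Conjugation proteins couple ATG8 to lipid. Here 3 of 8 rose (37.5%), near the 33.7% of all genes, and none fell, beside 31.5% of all genes. ATG4A, a protease that trims ATG8 proteins, stood at 20.2, 21.6 and 19.3 CPM after panobinostat and at 11, 13.3 and 11.1 CPM after vehicle. ATG3, the enzyme that hands ATG8 to the lipid, stood at 86.9, 81.5 and 79.5 CPM after panobinostat and at 55.0, 61.8 and 54.2 CPM after vehicle. Both rose without overlap, ATG4A by 0.78 ± 0.11 and ATG3 by 0.53 ± 0.08 on the log2 scale. ATG4B, the main protease of that kind, stood at 56.2 to 60.7 CPM after panobinostat and 63.0 to 63.5 CPM after vehicle and did not pass (-0.12 ± 0.07, adjusted p = 0.171). The per-length ratio of ATG4A to ATG4B was 0.792 ± 0.0332 after panobinostat and 0.423 ± 0.0464 after vehicle. A further relative, ATG4C, rose by 0.73 ± 0.10.

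ATG10, the enzyme that couples ATG12 to ATG5, stood at 20.4, 23.7 and 24.7 CPM after panobinostat and at 17.8, 20.0 and 20.0 CPM after vehicle. The groups were just separate and the rise was small (0.25 ± 0.10, adjusted p = 0.0428). It did not pass with DESeq2 (adjusted p = 0.122), with no filter (adjusted p = 0.0879), or without panobinostat library B or C or vehicle library A, B or C, where adjusted p ran from 0.0641 to 0.169. The lowest adjusted p of ATG10 over the alternatives was 0.00387. ATG5 stood at 43.5, 42.9 and 41.6 CPM after panobinostat and at 35.6, 41.9 and 40.1 CPM after vehicle, and ATG12 at 118, 112 and 114 CPM after panobinostat and at 118, 100 and 102 CPM after vehicle. Both overlapped and did not pass (adjusted p = 0.235 and 0.253). Both did pass with upper quartile scaling, library sizes left unscaled or a filter at a mean of 10 CPM. ATG5 also passed with limma (adjusted p = 0.027 to 0.0326), and ATG12 without vehicle library A (0.17, adjusted p = 0.0426). Over the alternatives, adjusted p ran from 0.0155 to 0.632 for ATG5 and from 0.013 to 0.595 for ATG12. ATG7, which activates the ATG8 proteins, and ATG16L1, which places the coupling on the membrane, did not pass either, at adjusted p = 0.391 and 0.0699.

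The ATG8 family itself changed in make-up. GABARAPL1 (chr12:10212458-10223130) stood at 8.28, 8.75 and 7.39 CPM after panobinostat and at 0, 0.0585 and 0.116 CPM after vehicle. That is 402 counts in the 3 panobinostat libraries and 3 in the vehicle libraries, which gives a depth-adjusted ratio of 130 (95% interval from counting alone, 44.3 to 635). GABARAPL1 was therefore at the floor of detection after vehicle and in every panobinostat library after treatment (adjusted p = 6.39e-10). MAP1LC3B, the gene for LC3B, the usual marker protein of autophagosomes, stood at 68.5, 46.4 and 47.8 CPM after panobinostat and at 29.8, 27.0 and 24.0 CPM after vehicle. It rose 2.01-fold (1.01 ± 0.14, adjusted p = 1.14e-05) without overlap, panobinostat library A being the highest. Reads of MAP1LC3B can also match its near-identical copy MAP1LC3B2, which was counted at 0.307 CPM after panobinostat and 0.140 CPM after vehicle.

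GABARAPL2 stood at 66.0, 78.1 and 81.1 CPM after panobinostat and at 59.0, 71.6 and 77.3 CPM after vehicle, and did not pass (0.11 ± 0.10, adjusted p = 0.340; 0.25 and adjusted p = 0.0408 with upper quartile scaling, and up to 0.961 otherwise). GABARAP stood at 10.3 to 16.1 CPM after panobinostat and at 11.6 to 14.3 CPM after vehicle (0.05 ± 0.15, adjusted p = 0.806), with 30.5% of its exon bases shared with another gene on its strand. The groups of both overlapped. MAP1LC3A had 0 counts in each panobinostat library and 1, 1 and 2 in the vehicle libraries, at or under the floor of 3 counts. Of the summed family FPKM, GABARAPL2 held 52.8, 59.8 and 59.9% after panobinostat and 64.4, 67.7 and 70.0% after vehicle, so it led in all 6 libraries. MAP1LC3B held 31.3, 20.3 and 20.2% after panobinostat, against 18.6, 14.6 and 12.4% after vehicle. The whole family summed to 44.6 ± 1.40 FPKM after panobinostat and 32.5 ± 2.84 FPKM after vehicle (SD, n = 3 each).

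**Figure D3:**
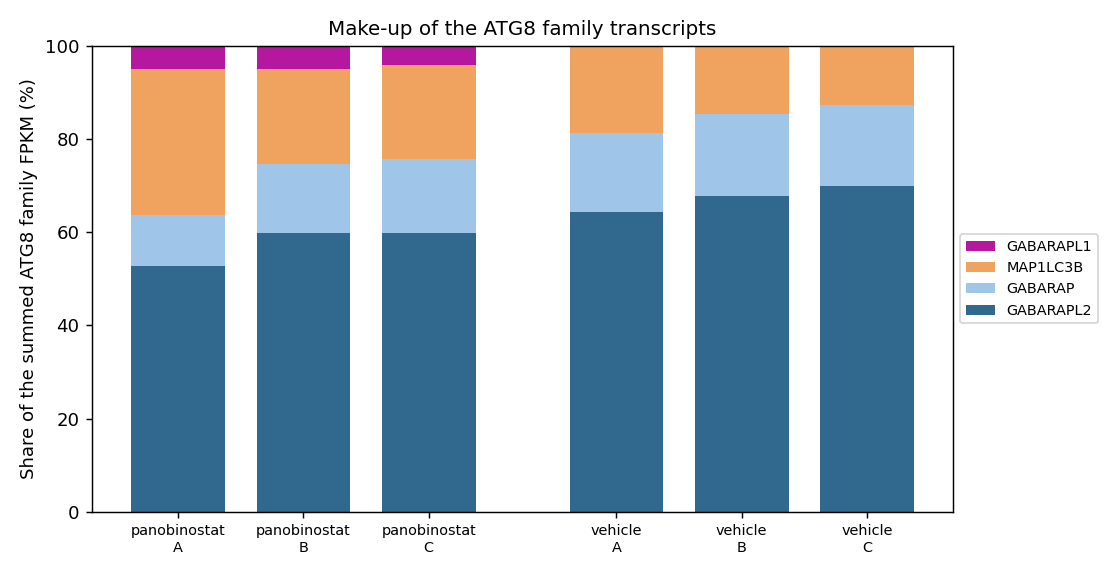
Share of each gene in the summed FPKM of the ATG8 family, 1 bar per library, panobinostat A to C on the left and vehicle A to C on the right. MAP1LC3A, at most 0.18% in any library, is not drawn. GABARAPL1 holds 4.06 to 4.98% of the panobinostat bars and 0 to 0.0775% of the vehicle bars, and GABARAPL2 is the broadest segment in each.

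Cargo receptors tie material marked for removal to ATG8 proteins, and 1 of the 3 listed rose, 1 fell and 1 did not pass. OPTN (chr10:13099449-13138308), optineurin, a receptor for mitochondria and bacteria, stood at 39.2, 42.7 and 42.3 CPM after panobinostat and at 11.5, 9.77 and 10.3 CPM after vehicle. It rose 3.95-fold (1.98 ± 0.10, adjusted p = 4.11e-10), with wide separation. NBR1, a receptor for aggregates, stood at 198, 200 and 196 CPM after panobinostat and at 227, 261 and 238 CPM after vehicle, and fell by 0.29 ± 0.07 (adjusted p = 0.00272), which did not pass with upper quartile scaling (-0.15, adjusted p = 0.0815, the highest over the alternatives; the lowest was 0.000376). SQSTM1, known as p62, stood at 70.2, 78.4 and 72.4 CPM after panobinostat and at 78.5, 81.9 and 88.7 CPM after vehicle. Its groups were separate by a narrow margin and it did not pass (-0.17 ± 0.08, adjusted p = 0.0624), although it did without vehicle library A (-0.22, adjusted p = 0.0232) and with no filter (-0.20); the highest adjusted p over the alternatives was 0.717.

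Of 15 further receptor and mitophagy genes, 7 rose (46.7%) and none fell, beside 33.7% and 31.5% of all genes. RETREG1, a receptor for endoplasmic reticulum, rose by 1.29 ± 0.14. TAX1BP1, a receptor for ubiquitin-marked cargo, rose by 0.81 ± 0.07 and was at 22.7 FPKM after panobinostat and 12.0 FPKM after vehicle. Of 13 genes for fusion of autophagosomes with lysosomes, 3 rose and 3 fell (23.1% each), below both of those shares. STX17, the fusion protein of the autophagosome, rose by 0.47 ± 0.09. VPS33A and VPS11, subunits of the tethering complexes, fell by 0.73 ± 0.08 and 0.47 ± 0.11. The VPS11 fall did not pass with limma unfiltered (-0.27, adjusted p = 0.0715). Of the exon bases of VPS33A, 21.5% are shared with another gene on its strand.

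**Figure D4:**
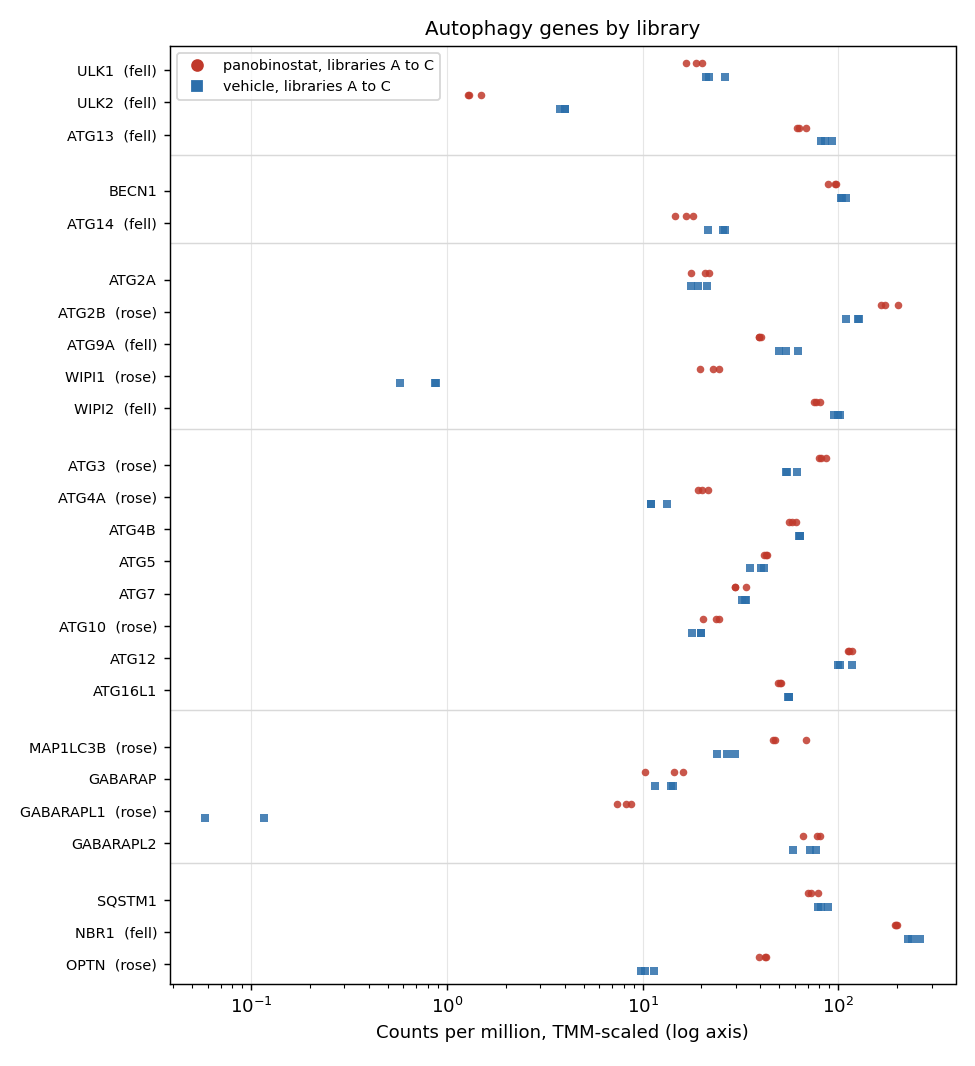
Level in TMM-scaled CPM of the 25 autophagy genes tested in each library, on a log axis, grouped by role from the kinase complex at the top to the cargo receptors at the bottom; circles are the 3 panobinostat libraries and squares the 3 vehicle libraries. GABARAPL1 was 0 in vehicle library A, which cannot be drawn on this axis. WIPI1, OPTN and GABARAPL1 lie far to the right in the panobinostat libraries, while ULK2 lies to the left.

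Among lysosomal membrane proteins, 4 of 6 rose (66.7%, beside 33.7% of all genes). NPC1, the cholesterol exporter that is lost in Niemann-Pick disease type C, stood at 70.0, 63.9 and 58.1 CPM after panobinostat and at 28.9, 28.8 and 27.1 CPM after vehicle. LAMP2, a structural glycoprotein that also serves fusion and chaperone-mediated autophagy, stood at 102, 103 and 107 CPM after panobinostat and at 55.0, 58.7 and 58.7 CPM after vehicle. SCARB2, the carrier of glucocerebrosidase to the lysosome, stood at 585, 586 and 585 CPM after panobinostat and at 358, 377 and 347 CPM after vehicle. None of these overlapped: NPC1 rose 2.26-fold (1.18 ± 0.09, adjusted p = 3.07e-08), LAMP2 1.81-fold (0.85 ± 0.07, adjusted p = 8.96e-08) and SCARB2 1.62-fold (0.70 ± 0.07, adjusted p = 5.21e-07).

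LAMP1, which did not pass, was 1.45 ± 0.0661 times as abundant per length as LAMP2 after panobinostat and 2.8 ± 0.214 times after vehicle. MCOLN1, a calcium channel of the lysosome, rose by 0.42 ± 0.11 (21.1 to 21.6 CPM after panobinostat, 14.6 to 18.5 CPM after vehicle). CLN3, a protein lost in a childhood storage disease, did not pass (adjusted p = 0.211), and 25.2% of its exon bases are shared with another gene on its strand. Of 20 further lysosomal membrane genes tested, 13 rose (65%) and 4 fell (20%), beside 33.7% and 31.5% of all genes. SLC17A5, the sialic acid exporter, stood at 21.3, 21.2 and 21.0 CPM after panobinostat, against 5.63, 7.2 and 5.78 CPM after vehicle, and rose 3.40-fold. SIDT2, which is linked to uptake of nucleic acids into lysosomes, rose by 1.05 ± 0.16 and TMEM106B, a regulator of lysosome size and transport, by 1.05 ± 0.11.

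Of the 5 proteases tested, 2 rose (40%, beside 33.7% of all genes). CTSB, cathepsin B, stood at 117, 131 and 133 CPM after panobinostat and at 68.2, 67.0 and 72.5 CPM after vehicle. TPP1, a peptidase, was scarce, at 4.14, 4.14 and 4.18 CPM after panobinostat and 3.17, 1.99 and 1.85 CPM after vehicle. Neither overlapped, and CTSB rose by 0.88 ± 0.08 (adjusted p = 1.26e-07) and TPP1 by 0.85 ± 0.22 (adjusted p = 0.00317); 11.6% of the exon bases of TPP1 are shared with another gene on its strand. CTSD, cathepsin D, stood at 29.9, 30.5 and 31.7 CPM after panobinostat and at 30.7, 26.2 and 26.7 CPM after vehicle. Its groups overlapped and it did not pass (0.14 ± 0.09, adjusted p = 0.178). It did pass with upper quartile scaling (0.28, adjusted p = 0.0138), library sizes left unscaled (0.26), a filter at a mean of 10 CPM (0.26) and limma (0.23 to 0.25). Adjusted p reached 0.444 over the alternatives, and 41.7% of the exon bases of CTSD are shared with another gene on its strand.

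CTSA, the protective protein that steadies NEU1, stood at 33.0, 31.9 and 30.0 CPM after panobinostat and at 38.9, 26.2 and 27.7 CPM after vehicle. Vehicle library A was the highest of the 6 and the other vehicle libraries the lowest, and CTSA did not pass (0.04 ± 0.13, adjusted p = 0.804) except without that library (0.22, adjusted p = 0.0474, the lowest over the alternatives; the highest was 0.957). CTSL, cathepsin L, was at 38.7 to 42.6 CPM after panobinostat and 38.2 to 47.7 CPM after vehicle (-0.09 ± 0.09, adjusted p = 0.409). Of the listed cathepsins CTSB passed and CTSA, CTSD and CTSL did not, though whether CTSB differed from them was not tested. Further cathepsins, chosen after their values were seen, went both ways. CTSH rose by 1.43 ± 0.09 and CTSV by 1.03 ± 0.12, CTSC fell by 0.59 ± 0.07, and CTSF did not pass (-0.03 ± 0.18). Cathepsins thus did not move as a block in these libraries.

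Of the glycosidases and the lipase, 3 of 5 rose (60%) and 1 fell (20%), beside 33.7% and 31.5% of all genes. LIPA, the acid lipase that frees cholesterol from its esters, stood at 144, 139 and 141 CPM after panobinostat and at 70.8, 85.5 and 78.0 CPM after vehicle. NEU1, the lysosomal sialidase, stood at 42.0, 43.5 and 36.6 CPM after panobinostat and at 26.4, 21.8 and 21.0 CPM after vehicle. GLA, the galactosidase lost in Fabry disease, stood at 31.8, 36.1 and 35.8 CPM after panobinostat and at 20.3, 21.4 and 21.4 CPM after vehicle. All of these were separate between groups, with log2 rises of 0.85 ± 0.08 for LIPA, 0.82 ± 0.11 for NEU1 and 0.72 ± 0.09 for GLA.

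HEXA, the alpha chain of the hexosaminidase lost in Tay-Sachs disease, stood at 25.8, 25.6 and 26.5 CPM after panobinostat and at 36.6, 38.7 and 35.3 CPM after vehicle. It was the lysosomal gene of the list that fell (-0.51 ± 0.08, adjusted p = 8.53e-05), and it did so without overlap. GAA, the glucosidase lost in Pompe disease, stood at 65.4, 79.1 and 75.4 CPM after panobinostat and at 77.6, 59.7 and 63.9 CPM after vehicle, with overlap and no call (0.13 ± 0.10, adjusted p = 0.265). Without vehicle library A it passed (0.24, adjusted p = 0.0294), and likewise with upper quartile scaling (0.27), and adjusted p reached 0.72 under another alternative.

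Among 35 further hydrolases and their activators tested, 18 rose (51.4%) and 9 fell (25.7%), beside 33.7% and 31.5% of all genes. FUCA1, a fucosidase, had 33, 44 and 34 counts after panobinostat and 11, 6 and 7 after vehicle, and rose by 2.15 ± 0.33. GM2A, the activator that presents ganglioside to hexosaminidase A, stood at 13.8, 9.94 and 9.54 CPM after panobinostat and at 2.45, 2.87 and 2.66 CPM after vehicle, a rise of 4.13-fold, opposite to HEXA. ARSB, a sulfatase of glycosaminoglycans, stood at 12.9, 13.4 and 14.7 CPM after panobinostat and at 42.5, 40.5 and 46.9 CPM after vehicle. The groups did not overlap, and the log2 fold change was -1.66 ± 0.10 (adjusted p = 2.31e-09).

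All 3 soluble lipid-binding and accessory proteins rose. NPC2 (chr14:74476192-74494177), which takes up cholesterol in the lumen and passes it to NPC1, stood at 11.3, 12.8 and 12.4 CPM after panobinostat and at 1.8, 0.936 and 1.5 CPM after vehicle. PSAP (chr10:71816298-71851375), the precursor of the saposins that help degrade sphingolipids, stood at 1015, 1099 and 1100 CPM after panobinostat and at 435, 417 and 415 CPM after vehicle. GRN, progranulin, a secreted protein that also reaches lysosomes, stood at 192, 189 and 163 CPM after panobinostat and at 113, 86.7 and 94.0 CPM after vehicle. In each the lowest panobinostat library lay above the highest vehicle library.

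NPC2 rose 8.73-fold (3.13 ± 0.19, adjusted p = 4.09e-09), PSAP 2.54-fold (1.34 ± 0.07, adjusted p = 8.55e-10) and GRN 1.85-fold (0.89 ± 0.10, adjusted p = 1.53e-06). PSAP was the most abundant listed gene per length in every library, at 343 ± 14.1 FPKM after panobinostat and 125 ± 4.30 FPKM after vehicle (SD, n = 3 each), followed by SCARB2 at 107 ± 1.13 and 61.0 ± 2.49 FPKM. NPC1, NPC2 and LIPA, which together free cholesterol and export it from the lysosome, all rose. NPC2 averaged 4.61 FPKM after panobinostat and 0.495 FPKM after vehicle, beside 6.58 and 2.69 FPKM for NPC1 in the same groups.

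The proton pump acidifies the lysosome, and 2 of its 3 listed subunits rose (66.7%, beside 33.7% of all genes). ATP6V1A, the catalytic subunit, stood at 243, 263 and 271 CPM after panobinostat and at 170, 193 and 186 CPM after vehicle, without overlap (0.50 ± 0.08, adjusted p = 3.85e-05). ATP6V1H, a regulatory subunit, stood at 68.5, 80.1 and 79.7 CPM after panobinostat and at 60.4, 68.7 and 66.1 CPM after vehicle. Its groups overlapped, and the small rise (0.23 ± 0.08, adjusted p = 0.0282) did not pass with DESeq2 (adjusted p = 0.0681), with no filter (adjusted p = 0.0699), or without panobinostat library B or C or vehicle library A or C, where adjusted p ran from 0.0717 to 0.122. The lowest adjusted p of ATP6V1H over the alternatives was 0.00146. ATP6V0D1, of the membrane sector, did not pass (-0.06 ± 0.07, adjusted p = 0.521).

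Of 16 further pump genes tested, 6 rose (37.5%), near the 33.7% of all genes, and 3 fell (18.8%), below the 31.5% of all genes. ATP6AP2, an accessory subunit also known as the prorenin receptor, stood at 121, 145 and 142 CPM after panobinostat and at 68.7, 65.9 and 66.8 CPM after vehicle, and rose 2.03-fold. ATP6V1E2 rose by 0.73 ± 0.13. ATP6V1G2, the neuronal form of the G subunit, fell by 0.65 ± 0.13, with 13.6% of its exon bases shared in that way.

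**Figure D5:**
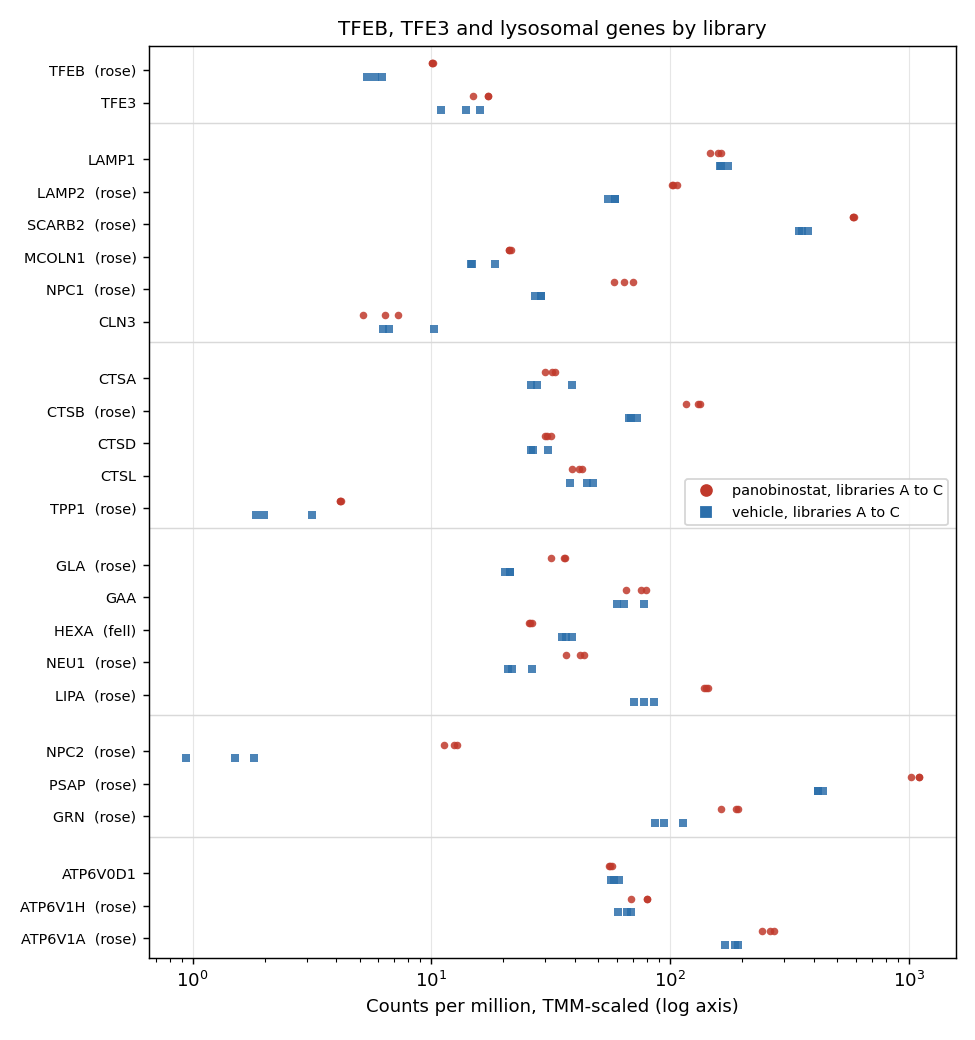
Level in TMM-scaled CPM of TFEB, TFE3 and the 22 lysosomal genes in each library, on a log axis, grouped by role from the regulators at the top through membrane proteins, proteases, glycosidases and lipase, soluble proteins and pump subunits; circles are the 3 panobinostat libraries and squares the 3 vehicle libraries. PSAP is the farthest right, at 1015 to 1100 CPM after panobinostat and 415 to 435 CPM after vehicle, and NPC2 shows the widest gap.

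Lysosomal enzymes reach the organelle by a mannose 6-phosphate tag. Of 6 genes of this route, 3 rose (50%) and 1 fell (16.7%), beside 33.7% and 31.5% of all genes. GNPTAB, the enzyme that starts the tag, stood at 82.4, 74.5 and 76.6 CPM after panobinostat and at 32.6, 33.6 and 31.8 CPM after vehicle. IGF2R, the large receptor of the tag, stood at 276, 265 and 234 CPM after panobinostat and at 115, 126 and 126 CPM after vehicle. NAGPA, the enzyme that uncovers the tag, stood at 2.28, 2.54 and 3 CPM after panobinostat and at 7.93, 6.73 and 7.10 CPM after vehicle. Groups were separate for each: GNPTAB rose by 1.25 ± 0.08, IGF2R rose by 1.08 ± 0.08, and NAGPA fell by 1.46 ± 0.17.

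Together the lists of further lysosomal genes (pump, hydrolases and membrane proteins) had 37 risen and 16 fallen of 71 tested, with a median log2 fold change of 0.25. The lists of further autophagy genes had 18 risen and 7 fallen of 46, with a median of 0.15. That is 39.1% risen and 15.2% fallen, beside 33.7% and 31.5% of all genes, so falls were less common than over all genes. The further lysosomal genes also rose more often than all genes, at 52.1%. Their falls, 22.5%, were below the 31.5% of all genes but commoner than the 4.55% among the listed lysosomal genes. Falls of the further lysosomal genes numbered 10 of 71 with library sizes left unscaled.

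As a list, 33 genes of mTORC1, the Rag GTPases, folliculin and related control did not move one way. Of these, 10 rose (30.3%) and 11 fell (33.3%), close to the 33.7% and 31.5% of all genes. The list also holds transcription factors, MITF, TFEC and FOXO1 among them. Its mTORC1 genes MTOR, RPTOR, MLST8 and AKT1S1, chosen after their values were seen, all fell. Their log2 falls were 0.17 ± 0.07, 0.79 ± 0.08, 0.64 ± 0.13 and 0.88 ± 0.12, in that order, with MTOR only just passing (adjusted p = 0.0468). MITF, a transcription factor of the TFEB family, stood at 16.2, 11.9 and 12.3 CPM after panobinostat and at 1.51, 1.99 and 2.02 CPM after vehicle, and rose 7.18-fold (2.84 ± 0.18, adjusted p = 6.43e-09). TFEC, the remaining member, chosen after its values were seen, had 17, 13 and 16 counts after panobinostat and 0 in each vehicle library, which puts it at least 14.9-fold higher when the vehicle group is set to 3 counts in all. Both were separate between groups. The 4 factors of this family summed to 7.91 ± 0.642 FPKM after panobinostat and 4.29 ± 0.638 FPKM after vehicle.

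FOXO1, a factor known to act on autophagy genes, stood at 33.8, 26.7 and 26.2 CPM after panobinostat and at 2.09, 1.81 and 2.25 CPM after vehicle. It rose 14.0-fold (3.81 ± 0.16, adjusted p = 5.16e-11), far outside the spread. SESN3, a sestrin that restrains mTORC1, stood at 139, 122 and 116 CPM after panobinostat and at 68.3, 61.5 and 66.1 CPM after vehicle, and rose by 0.95 ± 0.08. These are control genes of the pathway and were not among the 51 listed.

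Lysosomal genes such as PSAP, GRN, NPC2, CTSB and LIPA are also high in macrophages, so markers of those cells were read beside them. Of 12 macrophage markers, 5 had a row, and they summed to 1.08, 0.508 and 0.603 FPKM after panobinostat and to 1.11, 0.824 and 1.03 FPKM after vehicle, with none of the 5 at 0 in both groups. CSF1R and PTPRC rose and LYZ fell, all with means of 1.52 CPM or less in either group; these genes were chosen after their values were seen. CD14, CD68, ITGAM and CD163 were not analysed here. Markers of fibroblasts and endothelium moved with the lysosomal genes: 8 of 9 had a row, 6 of 7 tested rose, and they summed to 51.5, 53.2 and 53.4 FPKM after panobinostat and to 5.75, 4.83 and 5.15 FPKM after vehicle. Most of that was the matrix proteoglycan LUM at 42.4 and 0.654 FPKM, while the collagen COL1A1 stood at 3.62 and 0.253 FPKM and the receptor PDGFRB at 5.88 and 4.19 FPKM, panobinostat before vehicle. Their part in the lysosomal rises was not tested.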

How the data were processed

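RNA sequencing of 6 HT1197-labelled libraries was used, and groups and letters came from the labels. The deposited gene counts are whole reads. The file headers name featureCounts 1.5.0-p3 and the submitters' processing notes 1.5.1, Novoalign 2.8 and hg38. Genes of Ensembl release 84 were counted with strand option 2 and the largest overlap, per the file headers, which list 9 alignment files; columns of 6 are used. The sources used here do not say how rows were chosen. The deposited FPKM values are the authors' own and are not scaled by TMM; they served for levels between genes. The command names no option for reads that match several places, so near-identical copies can take or lose reads.

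Coordinates and exon overlap came from GENCODE release 29 (GRCh38), not the release used for counting, and all 22718 gene IDs matched. After the filterByExpr filter (10 counts, 15 in total) and TMM scaling, edgeR 4.0.16 in R 4.3.3 gave a quasi-likelihood test with no covariate, adjusted by Benjamini-Hochberg over 16084 genes. Each SE equals the size of the log2 fold change over the root of its F. Alternatives used DESeq2 1.42.0, limma 3.58.1 on log2 of FPKM plus 1 or 0.1, other scalings and filters, the library letter as a block, a stricter threshold of 0.01, and leaving out single libraries. Intervals and floors from counts reflect counting error alone.

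The members and lists were chosen with earlier results of these data known. All listed genes could be named. Values per library are given for up to 3 called genes per role with the largest change, for TFEB, TFE3 and MAP1LC3A, and for genes whose call changed under an alternative. Each further list gave up to 3 called genes with the largest change, provided they averaged at least 1 CPM. A result that this rule would name is not reported here. Promoters were shown for up to 4 genes with the element and the largest change, not on chromosome 8. Proteins were not shown.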

Additional observations from a re-analysis of the deposited data

How the results depend on the processing

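Of the 31 listed genes called, 27 (21 risen, 6 fallen) kept their call under every one of 18 alternatives in which they were tested; ULK1, ATG10, ATP6V1H and NBR1 did not, as given with their values. Over all alternatives the risen autophagy genes numbered 7 to 11 and the fallen 5 to 9, and the risen lysosomal genes 13 to 16 with 1 fallen in each. Leaving out 1 library gave 7 to 8 risen and 6 to 8 fallen autophagy genes, 13 to 15 risen lysosomal genes, and over all genes 5026 to 5575 rises and 4542 to 5093 falls. A filter at a mean of 10 CPM gave 3383 rises and 3351 falls over all genes, by construction from fewer genes. In the further autophagy lists, falls numbered 4 with limma after the FPKM filter at either pseudocount, and 3 with limma unfiltered or upper quartile scaling. In the further lysosomal lists, falls numbered 8 with the filter at 10 CPM, 9 with limma unfiltered, and 10 with library size alone, upper quartile scaling or limma after the FPKM filter; the cause was not tested. The library-size, upper quartile, 10 CPM and limma settings moved the median gene by 0.10 to 0.14 on the log2 scale, and signs of genes near 0 that were not called turned with it. ATG7 was 0.03 with library size or the 10 CPM filter, 0.02 with limma and 0.05 with upper quartile scaling. LAMP1 was 0.02 under the same settings and 0.05 with upper quartile scaling. CTSL was 0.02 with library size or the filter, 0.03 with limma and 0.05 with upper quartile scaling. ATP6V0D1 was 0.06 with library size or the filter, 0.05 with limma and 0.08 with upper quartile scaling, and ATG4B was 0.02 with the last. With 1 library left out, ATG2A ranged from -0.01 to 0.14, GABARAP from -0.09 to 0.20 and CTSA from -0.08 to 0.22. What letters A, B and C stand for is not stated, so a shared replicate or batch cannot be told apart from mere numbering. Deviations of same-lettered libraries correlated at 0.081, -0.021 and 0.104, in the order A, B and C. A replicate block changed no call of a listed gene. It gave 5432 rises and 5109 falls over all genes, 8 and 7 among autophagy genes, and 14 and 1 among lysosomal genes. Each C library correlated best with its own letter, and so did each A library, but not B. Low counts limit GABARAPL1, MAP1LC3A, WIPI1, ULK2, TPP1 and NPC2 most.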
